A study of Mus musculus with 12 samples.

Results

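Resident and recruited macrophages of the remote zone, the part of the left ventricle that was not ischemic, were compared on day 2 after ischemia/reperfusion (I/R) injury. The comparison used the 6 remote zone libraries of 12 in the series, 3 of resident (CD45.2) and 3 of recruited (CD45.1) cells, and was described over all genes. Hosts were CD45.2 mice carrying Mx1Cre and Myb flox/flox. Their bone marrow was ablated with 4 injections of polyI:C and replaced by marrow of C57BL/6 Ly5.1 mice, which carry CD45.1, so that CD45.2 cells are of host and CD45.1 cells of donor origin. Mice were 10 to 16 weeks old, of both sexes, and all had the I/R injury. Macrophages of both populations came from such chimeras and were sorted as live, CD45+, lineage-negative, CD11b+, F4/80+ and CD64+ cells, with about 1000 cells per library. The sort separates host from donor origin and not the time of arrival in the heart. Donor chimerism was given as above 90%, so host cells derived from remaining host marrow, and donor cells that entered the heart before the injury, cannot be told apart from resident and recruited cells. Every CD45.2 library came from the Mx1Cre Myb flox/flox background and every CD45.1 library from the Ly5.1 background, so genotype and origin cannot be told apart either. The labels tie no library to an animal, and P values measure the spread between libraries, which was estimated over all 12 of the series.

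Macrophages of the healthy heart are largely seeded before birth and maintain themselves in the tissue, where they take up dying cells and cell debris. After ischemia, monocytes from bone marrow enter the heart and become macrophages there. TIM-4 (Timd4), LYVE1 and the folate receptor Folr2 are usual markers of the resident cells, whereas Ly6C and the chemokine receptor CCR2 mark cells that derive from monocytes.

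Total counts were 46855805 to 63435529 per remote zone library. Levels are given as CPM, which are counts relative to the scaled total of their library, in the order replicates S104, S108 and S112 for CD45.1 and S106, S110 and S114 for CD45.2. A log2 fold change sets CD45.2 against CD45.1, is above 0 where resident cells are higher, and is followed by its standard error (SE). Adjusted p values come from edgeR's quasi-likelihood F test and were corrected over all tested genes by the method of Benjamini and Hochberg. Genes with an adjusted p under 0.05 are called. Ptprc, which encodes CD45, was at 388 to 567 CPM in the 6 libraries and did not pass the test (adjusted p = 0.859). Of 15 genes of the sort and of macrophages in general, 2 were called toward resident and 3 toward recruited cells. These are 13.3% and 20%, beside 16.2% and 15.8% of all tested genes. Fcgr1, which encodes the sorted CD64, was at 285, 330.1 and 309 CPM in CD45.1 and at 129, 126 and 119 CPM in CD45.2. The first principal component, with 62.9% of the variance, separated the populations, and the second, with 16.5%, set CD45.1 replicate S104 and CD45.2 replicate S106 apart from the other 4 libraries. Transcripts of the Y-linked Ddx3y were at 62.1 CPM in CD45.1 replicate S108 and 79.6 CPM in CD45.2 replicate S110, and at 0 to 0.063 CPM in the other 4 libraries, so each population held 1 male and 2 female libraries by this gene.

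Resident and recruited macrophages differed widely: of 18773 genes tested, 3039 were higher in CD45.2, 16.2% of those tested, and 2973 were higher in CD45.1, 15.8%. Together 32.0% were called, and for 42.1% the libraries of one population did not overlap those of the other. The directions were alike in number and unlike in size. Genes higher in CD45.2 had a median log2 fold change of 1.42 and a median level of 13.4 CPM in CD45.2. Genes higher in CD45.1 had a median log2 fold change of -0.82 and a median level of 44 CPM in CD45.1. When genes were split by level into 4 groups of equal size, the share called higher in CD45.2 was 10.6%, 21.9%, 17.6% and 14.6% from the lowest to the highest group. The share called higher in CD45.1 was 5.3%, 10.7%, 18.2% and 29.1%. More than 8-fold differences (log2 fold change beyond 3) were called toward CD45.2 for 619 genes and toward CD45.1 for 299. A fit of the 6 remote zone libraries alone called 2427 genes higher in CD45.2 and 2079 higher in CD45.1. It kept 76% and 69.3% of the calls above. Without CD45.2 replicate S114, 1980 genes were called higher in CD45.1, and without genes that share exons with a neighbor 1859 and 1659 were called.

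**Figure D1:**
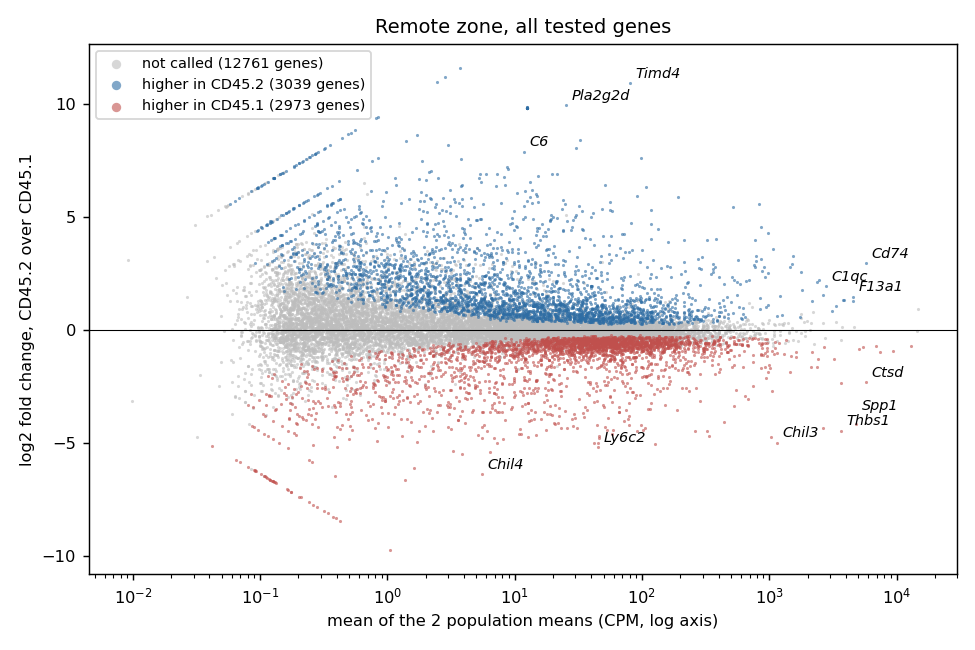
Log2 fold change (CD45.2 over CD45.1) of each tested gene against the mean of both population means in CPM on a log axis, with 3 libraries per population. Blue points are the 3039 genes called higher in CD45.2, red points the 2973 called higher in CD45.1 and gray points the others, and large folds toward CD45.2 are more numerous than large folds toward CD45.1.

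By class of gene, 18.2% of 13793 protein-coding genes were called toward resident and 17.9% toward recruited cells. Long intergenic noncoding RNAs were called at 18.4% and 12.3% of 521, and small nucleolar RNAs at 1.12% and 3.93% of 178. Chromosome 18 had the highest share called toward CD45.2 among the chromosomes, 24.7% of 489 genes, and 36 of its 41 clustered protocadherins were among them. Genes of the alpha cluster share their last exons, as do those of the gamma cluster, and were counted together. The 36 are thus not 36 separate observations, and without the clustered protocadherins the share was 19% of 448. Within 20 Mb of Ptprc, the locus that differs between CD45.1 and CD45.2 strains, 18.9% and 11.7% of 264 genes were called higher and lower in CD45.2, beside 16.2% and 15.8% of all genes.

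The difference between resident and recruited cells was also set against that in the infarct zone of the same series. The test of the difference between zones called 0 of 18773 genes with edgeR (percent called 0). At an unadjusted p under 0.05 there were 821, and DESeq2 called 163 and limma-voom 25. The 5 genes with the smallest adjusted p toward CD45.1 were Uck2, Bhlhe40, Clec4e, Mcemp1 and Napsa, with adjusted p between 0.0556 and 0.0613. Uck2, a kinase of the pyrimidine salvage pathway, had a log2 fold change of -4.19 here and of -1.68 in the infarct zone. For Mcemp1, a membrane protein of myeloid cells, the values were -4.18 and -2.02. Napsa, an aspartic protease, had -4.19 and -2.1. All 3 had lower values in resident cells of both zones. The 5 toward CD45.2 were Wfs1, Fam118a, Dennd2c, Tmod1 and 9330179D12Rik, with adjusted p between 0.243 and 0.307. Wfs1 had a log2 fold change of 0.59 here and of -0.26 in the infarct zone, and the others were above 0 in both. The test does not ask whether a gene differs between populations in the remote zone alone.

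The genes with the largest folds toward resident cells were nearly silent in recruited cells. Timd4, Pla2g2d and Vsig4 led this group with C6, which encodes a component of the membrane attack complex. C6 was at 0.115, 0.167 and 0 CPM in CD45.1 and at 17.3, 27.1 and 26.4 CPM in CD45.2 (log2 fold change 7.87 ± 0.60 SE, adjusted p = 1.48e-05). Hs3st3a1, a sulfotransferase that modifies heparan sulfate, was at 0.153, 0.0333 and 0.168 CPM in CD45.1. Its levels in CD45.2 were 11.7, 20.5 and 19.8 CPM (7.21 ± 0.47, adjusted p = 1.64e-06). Slc10a6, a transporter of sulfated steroids, had 0.115, 0 and 0.357 CPM in CD45.1 against 16.4, 15.2 and 17.8 CPM in CD45.2 (6.75 ± 0.94). No overlap between the populations was a condition for choosing these genes, and 42.1% of all tested genes met it. Qprt, an enzyme of NAD synthesis from tryptophan, was at no more than 0.23 CPM in CD45.1 and at 8.99, 8.42 and 13.5 CPM in CD45.2 (6.73 ± 0.68). Tln2, the talin paralog that links integrins to actin, was at 0.153, 0.233 and 0.462 CPM in CD45.1 and at 17, 39.5 and 21.2 CPM in CD45.2 (6.52 ± 0.56). Cd209g, a C-type lectin, had 0.23, 0.1 and 0 CPM in CD45.1 and 16.5, 6.16 and 9.31 CPM in CD45.2.

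Toward recruited cells, the chitinase-like genes Chil4 and Chil3, the monocyte gene Ly6c2 and 2 receptors of the TREM family were among the 12 with the largest folds. Chil4 was at 9.47, 12.8 and 10.7 CPM in CD45.1 and at 0.246, 0.0205 and 0.121 CPM in CD45.2 (log2 fold change -6.37 ± 0.62, adjusted p = 2.27e-05). Chil3 had 1907, 2385 and 2343 CPM in CD45.1 and 78.5, 71.1 and 60.8 CPM in CD45.2 (-4.98 ± 0.31). Chil3 and Chil4 are closely alike in sequence, so counts of Chil4 may include reads of Chil3. Trem3, an activating receptor of myeloid cells, was at 14.5, 21.8 and 10.8 CPM in CD45.1 and at most at 0.795 CPM in CD45.2 (-4.81 ± 0.50). Treml2, its neighbor on chromosome 17, had 11.5, 11.9 and 16.2 CPM in CD45.1 and 0.757, 0.678 and 0.0173 CPM in CD45.2 (-4.78 ± 0.71). Both receptors were thus expressed in all 3 recruited libraries and below 1 CPM in all 3 resident ones. The pseudogene I830127L07Rik was at 6.02, 17.4 and 14.3 CPM in CD45.1 and below 1 CPM in CD45.2, and lies on chromosome 15 close to Ly6c2. Tmem181b-ps, a pseudogene on chromosome 17, was at 12.7, 11.7 and 17.5 CPM in CD45.1 and at 0.776, 0.452 and 0.104 CPM in CD45.2.

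**Figure D2:**
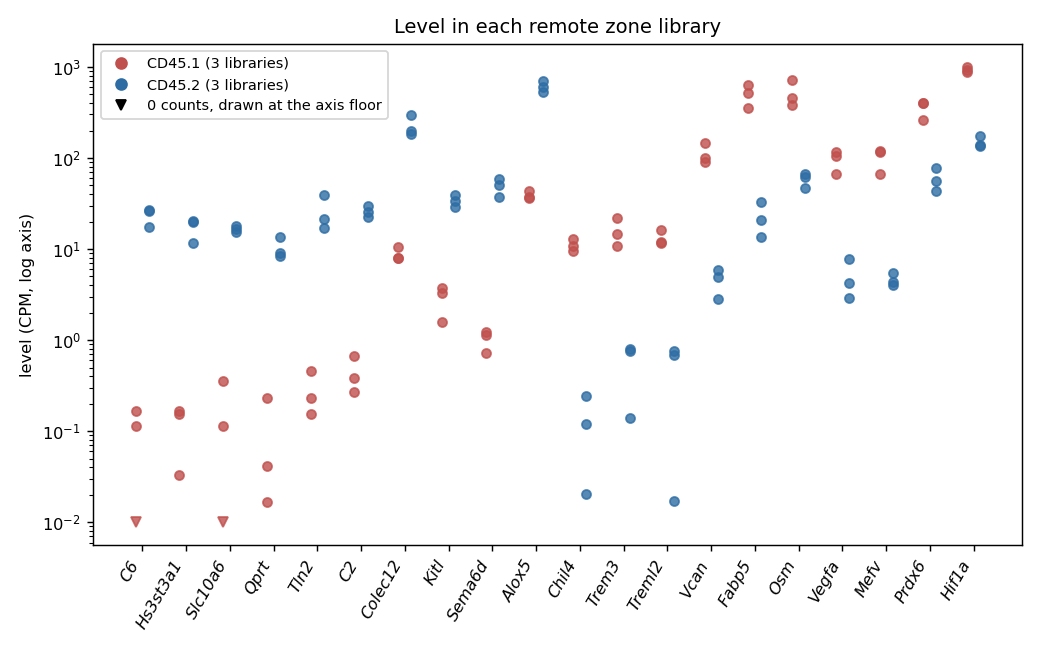
Level in CPM on a log axis of 20 genes in each of the 3 CD45.1 (red) and 3 CD45.2 (blue) remote zone libraries, with triangles for libraries with 0 counts. The populations do not overlap at any gene shown, which was a condition of the choice for genes taken from the largest folds. C6, Hs3st3a1, Slc10a6 and Qprt lie below 1 CPM in the CD45.1 libraries.

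The sequence before the transcription start is shown for those of the 3 genes with the largest folds in each direction that had an entry in the RefSeq promoter table (GRCm38.p6), as the DNA that lies next to the strongest differences. Each line gives the 250 bases before the start, 5′ to 3′ on the strand of the gene. Capitals mark matches, on either strand, to 1 of 6 motifs: the E-box CACGTG, the core of the hypoxia response element ACGTG, the MAF core TGCTGA, the C/EBP palindrome TTGCGCAA, the AP-1 site TGACTCA and the PU.1 site GAGGAAGT. The core ACGTG lies within the E-box letters, so each E-box is also a match to the core.
Timd4 (chr11:46810549-46810798, + strand): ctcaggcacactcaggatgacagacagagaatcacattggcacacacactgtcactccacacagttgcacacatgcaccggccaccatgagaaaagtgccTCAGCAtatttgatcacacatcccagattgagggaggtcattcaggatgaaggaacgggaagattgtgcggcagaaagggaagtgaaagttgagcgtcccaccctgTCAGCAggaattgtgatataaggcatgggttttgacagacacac
Pla2g2d (chr4:138775485-138775734, + strand): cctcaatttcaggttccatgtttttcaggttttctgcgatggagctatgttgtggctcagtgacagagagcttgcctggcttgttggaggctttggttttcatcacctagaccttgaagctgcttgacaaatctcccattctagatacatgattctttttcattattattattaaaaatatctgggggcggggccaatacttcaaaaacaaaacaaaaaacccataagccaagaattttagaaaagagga
C6 (chr15:4726960-4727209, + strand): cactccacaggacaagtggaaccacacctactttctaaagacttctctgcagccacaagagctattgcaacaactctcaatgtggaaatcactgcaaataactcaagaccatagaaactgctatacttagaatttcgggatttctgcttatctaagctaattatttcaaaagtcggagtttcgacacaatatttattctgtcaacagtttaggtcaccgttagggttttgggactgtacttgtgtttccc
Chil4 (chr3:106219480-106219729, - strand): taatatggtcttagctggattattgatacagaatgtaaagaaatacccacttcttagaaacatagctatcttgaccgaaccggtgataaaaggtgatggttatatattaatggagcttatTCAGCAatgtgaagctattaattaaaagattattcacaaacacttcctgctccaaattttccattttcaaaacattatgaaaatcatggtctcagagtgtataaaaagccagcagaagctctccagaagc
Ly6c2 (chr15:75111972-75112221, - strand): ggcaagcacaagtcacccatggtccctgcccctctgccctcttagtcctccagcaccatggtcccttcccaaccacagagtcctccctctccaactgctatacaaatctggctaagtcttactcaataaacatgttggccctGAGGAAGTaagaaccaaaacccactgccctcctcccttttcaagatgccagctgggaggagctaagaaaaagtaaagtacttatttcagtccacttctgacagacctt
The window of Timd4 held 2 MAF cores and that of Chil4 held 1, beside a match in 13.3% of 11605 promoters of tested genes. Ly6c2 held a PU.1 site, which 2.72% of those promoters held. Pla2g2d and C6 held none of the 6 motifs in this window.

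The largest differences in CPM were those of abundant genes. The CPM of a gene grows with its length, so the differences below compare each gene with itself. Spp1, which encodes osteopontin, was at 10615, 10103 and 6794 CPM in CD45.1 and at 835, 446 and 258 CPM in CD45.2 (log2 fold change -4.16 ± 0.57, adjusted p = 0.000259). Thbs1, which encodes thrombospondin, was at 7615, 7690.3 and 5628 CPM in CD45.1 and at 422, 312 and 217 CPM in CD45.2 (-4.46 ± 0.34). Fibronectin (Fn1) was at 5738, 6119 and 3337 CPM in CD45.1 and at 345, 289 and 113.7 CPM in CD45.2 (-4.35 ± 0.47). For these 3 secreted proteins every recruited library was above every resident one. Ctsd, a lysosomal protease, and Actb differed less, by -2.31 ± 0.33 and -0.97 ± 0.24 on the log2 scale. Gm49369 and Gm10252, also among the 10 largest CPM differences toward CD45.1, overlap Ctsd and Ftl1 and may hold their reads. The calls of Fth1, Ftl1 and Gm10252 were lost without any 1 of S104, S108, S110 and S114, with adjusted p from 0.0612 to 0.129.

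Toward resident cells the largest CPM differences were those of Cd74, F13a1, Fos, C1qb, C1qc, Dusp1, Jun, Serinc3, Selenop and Trf. F13a1, the A chain of coagulation factor XIII, was at 2206, 2911 and 2195 CPM in CD45.1 and at 7672, 6463 and 6024 CPM in CD45.2 (log2 fold change 1.46 ± 0.16). Serinc3, a membrane protein, was at 789, 780.1 and 1115 CPM in CD45.1 and at 3278, 4237 and 4033 CPM in CD45.2 (2.11 ± 0.22). Transferrin (Trf) was at 321, 378 and 853 CPM in CD45.1 and at 2526, 3141 and 3377 CPM in CD45.2 (2.54 ± 0.39). In each of these the populations did not overlap. Fos was at 2467, 2487 and 2982 CPM in CD45.1 and at 3081, 7807 and 8339 CPM in CD45.2, so that CD45.2 replicate S106 lay close to the recruited libraries (1.28 ± 0.33, adjusted p = 0.0126). Its call was lost without replicate S108 (adjusted p = 0.0504) or S114 (0.055), and that of Dusp1 without S104 (0.078), S108 (0.0781), S110 (0.0588) or S114 (0.0857). Spp1, Thbs1, Fn1, Ctsd, Cd74, F13a1, Dusp1, Jun, Serinc3 and Selenop share exons with a neighboring gene.

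Genes of monocyte origin were higher in recruited cells in 19 of 24 tested (79.2%) and in resident cells in 1 (4.17%). All tested genes gave 15.8% and 16.2%. The median log2 fold change was -3.16, beside 0.044 over all tested genes. Ccr2 was at 862, 1519.8 and 1296 CPM in CD45.1 and at 106.7, 192 and 139.9 CPM in CD45.2 (-3.07 ± 0.33). Versican (Vcan) was at 90, 145 and 100.04 CPM in CD45.1 and at 4.99, 5.85 and 2.86 CPM in CD45.2 (-4.61 ± 0.37). In neither did the populations overlap. The exception was Spn, which encodes CD43, a marker of the nonclassical monocyte, at 6.15, 3.38 and 4.87 CPM in CD45.1 and at 16.2, 11.9 and 15.8 CPM in CD45.2 (1.61 ± 0.33). Ace, Ifitm6, Itga4 and Nr4a1 did not pass the test, though Ifitm6 did without S110 (adjusted p = 0.00775). Lst1 lost its call without any 1 of replicates S104, S106, S108 and S114, with adjusted p from 0.0697 to 0.102.

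Genes of resident heart macrophage identity were higher in CD45.2 in 18 of 23 tested, with a median log2 fold change of 2.8, and 1 was lower. Cbr2, a carbonyl reductase, was at 169, 135 and 245 CPM in CD45.1 and at 1543, 1289 and 1180.0 CPM in CD45.2 (2.87 ± 0.25). Gas6, a bridge between dying cells and their receptors, was at 135, 151 and 316 CPM in CD45.1 and at 1409, 1355 and 1308 CPM in CD45.2 (2.76 ± 0.27). Igf1 was at 8.68, 11.5 and 28.5 CPM in CD45.1 and at 143, 220.0 and 191 CPM in CD45.2 (3.51 ± 0.49). CD45.1 replicate S112 had the highest recruited level of all 3. Against the list, Cd5l, a secreted scavenger protein, was at 12.2, 10.9 and 36.8 CPM in CD45.1 and at 2.95, 1.85 and 4.16 CPM in CD45.2 (-2.74 ± 0.51). Pf4, Ednrb, Ninj1 and Maf did not pass the test. Maf, a transcription factor of resident macrophages, was at 130.2, 81.5 and 117 CPM in CD45.1 and at 129, 196 and 158 CPM in CD45.2 (adjusted p = 0.0631), and passed without replicate S106 (0.0287). Without genes that share exons, 10 of the 14 members then tested were called higher in CD45.2.

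**Figure D3:**
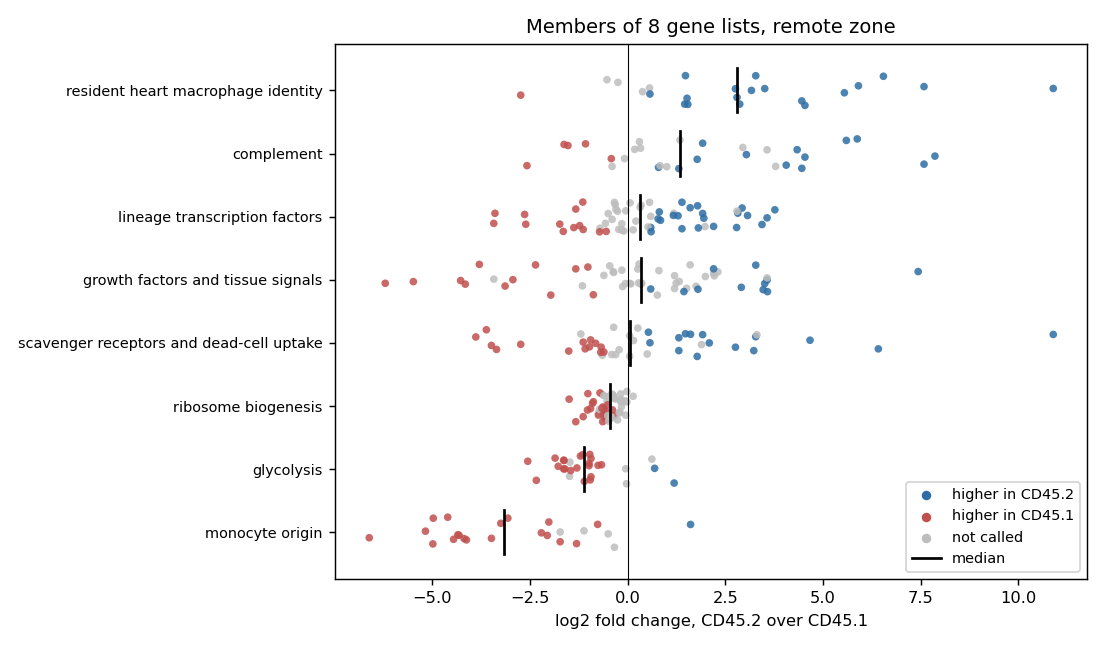
Log2 fold change (CD45.2 over CD45.1) of each tested member of 8 gene lists, blue and red where called and gray where not, with the median as a black bar. Members of the monocyte list lie to the left in all cases but Spn, those of the resident list to the right in 20 of 23, and the scavenger and growth factor lists reach far to both sides.

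Of 29 complement genes tested, 13 were higher in resident and 5 in recruited cells, with a median log2 fold change of 1.34. The classical pathway was represented by C1qc, the recognition protein, at 1212, 968 and 1305 CPM in CD45.1 and at 4586, 4409 and 4217 CPM in CD45.2 (1.92 ± 0.18). C2, a protease of that pathway, was at 0.383, 0.267 and 0.672 CPM in CD45.1 and at 22.3, 29.3 and 25.7 CPM in CD45.2 (5.88 ± 0.31). C4b was at 48.7, 46.1 and 118 CPM in CD45.1 and at 1666, 1569.6 and 1717 CPM in CD45.2 (4.54 ± 0.36). Of the lectin pathway, ficolin A (Fcna) was at 5.96, 11.9 and 17 CPM in CD45.1 and at 273, 231 and 263 CPM in CD45.2 (4.46 ± 0.35). The central component C3 and the integrin chain Itgax of a C3 fragment receptor were higher in CD45.1, by 1.53 ± 0.25 and 1.63 ± 0.22 on the log2 scale. C4b and C4a are nearly identical in sequence and C2 and Fcna share exons with a neighbor, so their counts may be split or shared. C3 and Itgax were chosen after their values were seen.

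Scavenger receptors and genes of dead-cell uptake moved both ways, with a median log2 fold change of 0.05. Of 42 tested, 15 (35.7%) were called toward resident and 14 (33.3%) toward recruited cells, beside 16.2% and 15.8% of all genes. On the resident side stood Colec12, a collectin scavenger receptor, at 7.94, 10.6 and 8.07 CPM in CD45.1 and at 297, 181 and 199 CPM in CD45.2 (4.67 ± 0.28). Pros1, like Gas6 a ligand of the TAM receptors, was at 68.1, 89.6 and 98.3 CPM in CD45.1 and at 380.3, 348 and 359 CPM in CD45.2 (2.09 ± 0.15). The TAM receptor Axl was at 37.6, 35.4 and 97.4 CPM in CD45.1 and at 424, 566 and 606 CPM in CD45.2 (3.23 ± 0.43). Axl, its ligand Gas6 and the TAM ligand Pros1 were thus higher in the same population. On the recruited side stood Cd300lf, a receptor for lipids of dying cells, at 191, 239 and 186 CPM in CD45.1 and at 21.1, 22.4 and 11.5 CPM in CD45.2 (-3.49 ± 0.24). The oxidized LDL receptor Olr1 was at 13.4, 12.3 and 9.66 CPM in CD45.1 and at 1.21, 0.637 and 1.02 CPM in CD45.2 (-3.62 ± 0.28). Trem2, a lipid receptor, was at 223, 243 and 263 CPM in CD45.1 and at 143, 98.5 and 90.5 CPM in CD45.2 (-1.14 ± 0.22). Marco, a receptor for bacteria, had 0, 0 and 0.273 CPM in CD45.1 and 17.3, 0.904 and 4.38 CPM in CD45.2 (6.42 ± 1.42), and its log2 fold change was 11.59 without CD45.1 replicate S112, when both recruited libraries left were at 0 and the value depended on the prior count. Axl, Olr1, Trem2 and Marco were chosen after their values were seen.

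Antigen presentation by MHC class II was higher in resident cells for 8 of 17 genes tested (47.1%) and lower for 3 (17.6%). All tested genes gave 16.2% and 15.8%. CD45.2 replicate S106 stood apart within the resident group. H2-Aa was at 90.6, 189 and 217 CPM in CD45.1 and at 551, 2792 and 2566 CPM in CD45.2 (log2 fold change 3.57 ± 0.66). H2-Ab1 was at 166, 333 and 372 CPM in CD45.1 and at 792, 4101 and 3466 CPM in CD45.2 (3.26 ± 0.63). In replicate S106 both chains were lower than in S110 and S114, and still above every recruited library. H2-Ob, a subunit of the chaperone that holds back peptide loading, was at 0.824, 0.683 and 1.49 CPM in CD45.1 and at 4.88, 12.1 and 14.1 CPM in CD45.2 (3.38 ± 0.50). The costimulator Cd86 was at 60.2, 90.6 and 51.5 CPM in CD45.1 and at 160.4, 235 and 197 CPM in CD45.2 (1.55 ± 0.24). The 3 genes higher in recruited cells, Ifi30, Lgmn and Ctss, encode lysosomal enzymes that process antigens. Ifi30 was at 227, 229 and 219.6 CPM in CD45.1 and at 98.5, 82.9 and 72.9 CPM in CD45.2 (-1.41 ± 0.13). Without replicate S106, 12 genes of the list were called higher in CD45.2. In the MHC class I list 5 of 18 genes (27.8%) were called toward recruited and 1 (5.56%) toward resident cells. Over all genes these shares were 15.8% and 16.2%. The 5 became 2 without S108 or S114 and 3 without S110. Calr, the chaperone calreticulin, was the strongest of those named, at 1496, 1221 and 1081 CPM in CD45.1 and at 845, 615 and 526 CPM in CD45.2 (-0.93 ± 0.20). H2-Aa and H2-Ab1 were chosen after their values were seen.

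Transcription factors of macrophage lineages were called for 35 of 59 tested. Of the 59, 22 (37.3%) were called toward CD45.2 and 13 (22%) toward CD45.1, beside 16.2% and 15.8% of all genes. Hif1a, the oxygen-regulated factor, was at 930.1, 1002 and 878 CPM in CD45.1 and at 175, 139 and 135 CPM in CD45.2 (log2 fold change -2.64 ± 0.14, adjusted p = 4.84e-07). Bhlhe40, a repressor that is itself induced by hypoxia, was at 109.3, 152 and 100.8 CPM in CD45.1 and at 12.9, 11.2 and 9.57 CPM in CD45.2 (-3.43 ± 0.18). Fosl2, an AP-1 subunit, was at 124, 132 and 154 CPM in CD45.1 and at 39, 48.9 and 42.4 CPM in CD45.2 (-1.65 ± 0.13). These 3 had little spread within either population. Toward resident cells, Irf4 was at 1.04, 2.32 and 2.86 CPM in CD45.1 and at 20.9, 35.1 and 28.5 CPM in CD45.2 (3.77 ± 0.47). Zbtb46, known from dendritic cells, was at 1.27, 1.38 and 1.81 CPM in CD45.1 and at 13.3, 19.7 and 19.7 CPM in CD45.2 (3.57 ± 0.45). Dendritic cell markers as a list went both ways, with 3 of 10 tested (30%) called toward CD45.2 and 2 (20%) toward CD45.1. Those 2 were Flt3 (-2.94 ± 0.77) and Dpp4 (-3.19 ± 0.98). Spic, a factor of macrophages that recycle red cells, was at 1.8, 3.18 and 3.28 CPM in CD45.1 and at 14.1, 25.9 and 17.2 CPM in CD45.2 (2.79 ± 0.38). Egr1, an immediate early gene, was at 351, 389 and 301 CPM in CD45.1 and at 1134, 3315 and 3494 CPM in CD45.2 (2.93 ± 0.39). Jun, which was not in the list, was at 826, 836 and 968 CPM in CD45.1 and at 1705, 5142 and 5182 CPM in CD45.2. For both genes S106 was the lowest resident library. Nr4a1, another immediate early gene, did not pass the test, at 362, 506 and 385 CPM in CD45.1 and at 168, 399.9 and 321 CPM in CD45.2 (-0.5 ± 0.26). Hif1a, Bhlhe40 and Jun share exons with a neighbor, and Irf4, Spic and Egr1 were chosen after their values were seen.

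Most glycolysis genes were higher in recruited cells: 21 of 28 genes tested were called in that direction and 2 toward resident cells, with a median log2 fold change of -1.13. Hk2, the hexokinase that traps glucose, was at 57.7, 45.9 and 42.2 CPM in CD45.1 and at 23.3, 24.5 and 19.7 CPM in CD45.2 (-1.11 ± 0.14, adjusted p = 0.000106). Pfkl, the phosphofructokinase of liver type, was at 416, 392 and 332 CPM in CD45.1 and at 186, 108.4 and 119 CPM in CD45.2 (-1.46 ± 0.21). Its muscle paralog Pfkm went the other way, at 5.27, 4.8 and 5.25 CPM in CD45.1 and at 11.7, 12.1 and 11.2 CPM in CD45.2 (1.19 ± 0.15). Pgam1 was at 374, 397 and 303 CPM in CD45.1 and at 154, 65.7 and 77.7 CPM in CD45.2 (-1.86 ± 0.29). The glucose transporter Slc2a1 was at 225, 215 and 121 CPM in CD45.1 and at 62.9, 23.5 and 24.9 CPM in CD45.2 (-2.34 ± 0.43). Lactate dehydrogenase Ldha, at the end of the pathway, was at 1423, 1655 and 1133 CPM in CD45.1 and at 647, 364 and 347 CPM in CD45.2 (-1.63 ± 0.26). The populations overlapped at none of these genes, and CD45.2 replicate S106 had the highest resident level of the last 3 genes. With any 1 library left out, 17 to 23 genes of the list were called higher in CD45.1. Without genes that share exons, 11 of the 16 then tested were called. Pgam1, Slc2a1 and Ldha were chosen after their values were seen, and Pfkm, Tpi1 and Slc2a1 share exons.

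In the 250 bases before their start, 12 of 27 promoters of glycolysis genes (44.4%) held the letters ACGTG on either strand. The share was 21% of 11605 promoters of tested genes, 24.9% of 2072 promoters of genes called higher in CD45.1 and 18.8% of 2059 of genes called higher in CD45.2. Promoters of Hk2 and Pgam1, as examples that hold the letters, are printed with each match in capitals, which reads CACGT where the match is on the opposite strand.
Hk2 (chr6:82774455-82774704, - strand): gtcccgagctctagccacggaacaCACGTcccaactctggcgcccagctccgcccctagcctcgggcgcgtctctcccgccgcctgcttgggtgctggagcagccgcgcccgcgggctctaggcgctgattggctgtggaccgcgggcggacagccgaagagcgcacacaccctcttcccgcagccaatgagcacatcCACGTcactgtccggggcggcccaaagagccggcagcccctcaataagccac
Pgam1 (chr19:41911621-41911870, + strand): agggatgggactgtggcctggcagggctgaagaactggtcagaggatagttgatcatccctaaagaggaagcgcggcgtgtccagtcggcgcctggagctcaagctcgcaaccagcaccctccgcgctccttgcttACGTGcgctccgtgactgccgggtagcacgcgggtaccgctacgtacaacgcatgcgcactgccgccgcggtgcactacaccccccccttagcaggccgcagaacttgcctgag
A match to 5 letters is common and says nothing of binding.

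Genes of the hypoxia response were higher in CD45.1 for 13 of 28 tested (46.4%) and in CD45.2 for 4 (14.3%). Beside these shares stood 15.8% and 16.2% of all genes. Vegfa, the vascular growth factor, was at 106.03, 117 and 67 CPM in CD45.1 and at 4.29, 7.78 and 2.88 CPM in CD45.2 (log2 fold change -4.28 ± 0.46). Egln3, an oxygen sensor that HIF induces, was at 11.4, 9.05 and 5.67 CPM in CD45.1 and at 0.681, 0.616 and 0.936 CPM in CD45.2 (-3.54 ± 0.39). The stress gene Ndrg1 was at 59.4, 80.2 and 72.2 CPM in CD45.1 and at 11.9, 7.89 and 15.8 CPM in CD45.2 (-2.57 ± 0.23). Not all members followed. Adrenomedullin (Adm), a vasodilator peptide, was at 0.268, 0.433 and 0.168 CPM in CD45.1 and at 2.78, 3.31 and 2.48 CPM in CD45.2 (3.28 ± 0.56). Selenbp1 was at 25.1, 22.4 and 23.8 CPM in CD45.1 and at 106.8, 136 and 119 CPM in CD45.2 (2.34 ± 0.21). Egln3 and Adm were chosen after their values were seen. Hif1a, Bhlhe40 and Ndrg1 are examples of members that share exons. Without such genes 16 members were tested, of which 4 were called higher in CD45.1 and 4 in CD45.2. The median log2 fold change was then -0.15, beside -0.71 with all members.

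Of 47 genes of oxidative phosphorylation tested, 7 were called toward recruited and 0 toward resident cells with edgeR. The share of 14.9% is near the 15.8% of all genes, and the median log2 fold change was -0.41. Uqcrfs1, the Rieske protein of complex III, was at 76.9, 90.7 and 66 CPM in CD45.1 and at 54, 49.5 and 43.5 CPM in CD45.2 (-0.67 ± 0.13). Atp5g3, a subunit of the ATP synthase, was at 140.0, 129 and 102.02 CPM in CD45.1 and at 87.1, 68.4 and 57.7 CPM in CD45.2 (-0.8 ± 0.18). The count of the list moved with single libraries and with the fit. It was 25 without S106 and 16 without S112, and 4 without S104, S108 or S114. It was 29 with limma-voom, 13 with DESeq2, 27 in a fit with an added term that sets libraries S104 to S107 apart and 15 without both S104 and S106.

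Genes of ribosomes and of their assembly were lower in resident cells wherever called. Of 85 cytosolic ribosomal proteins tested, 41 (48.2%) were higher in CD45.1 and 0 in CD45.2, beside 15.8% and 16.2% of all genes. Their median log2 fold change was -0.61. Rpl10 was at 247, 264 and 203 CPM in CD45.1 and at 150.0, 149 and 141 CPM in CD45.2 (-0.7 ± 0.12). Rpl19 was at 188, 195 and 138 CPM in CD45.1 and at 110.6, 93.9 and 80.7 CPM in CD45.2 (-0.87 ± 0.17). The count of 41 became 12 without S104, 13 without S108 or S114, 68 without S112 and 23 without both S104 and S106. Ribosome biogenesis had 21 of 56 genes (37.5%) higher in CD45.1 and 0 in CD45.2. Heatr1, a factor of ribosomal RNA transcription and processing, was at 170.3, 179.9 and 155 CPM in CD45.1 and at 77.2, 46.9 and 54 CPM in CD45.2 (-1.5 ± 0.18). Polr1a, the largest subunit of RNA polymerase I, was at 34.4, 40.1 and 28.9 CPM in CD45.1 and at 18.1, 15.4 and 17.1 CPM in CD45.2 (-1.03 ± 0.15). This count was 35 without S106, 10 without S104, 7 without S108, 11 without S110 and 9 without S114. With limma-voom it was 35, with a term for libraries S104 to S107 34, and in a fit of the 6 remote zone libraries alone 12. Called or not, 83 of 85 and 55 of 56 log2 fold changes were below 0. These 4 genes share exons with a neighbor. Without such genes, 15 of 45 ribosomal proteins and 10 of 32 biogenesis genes tested were called.

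**Figure D4:**
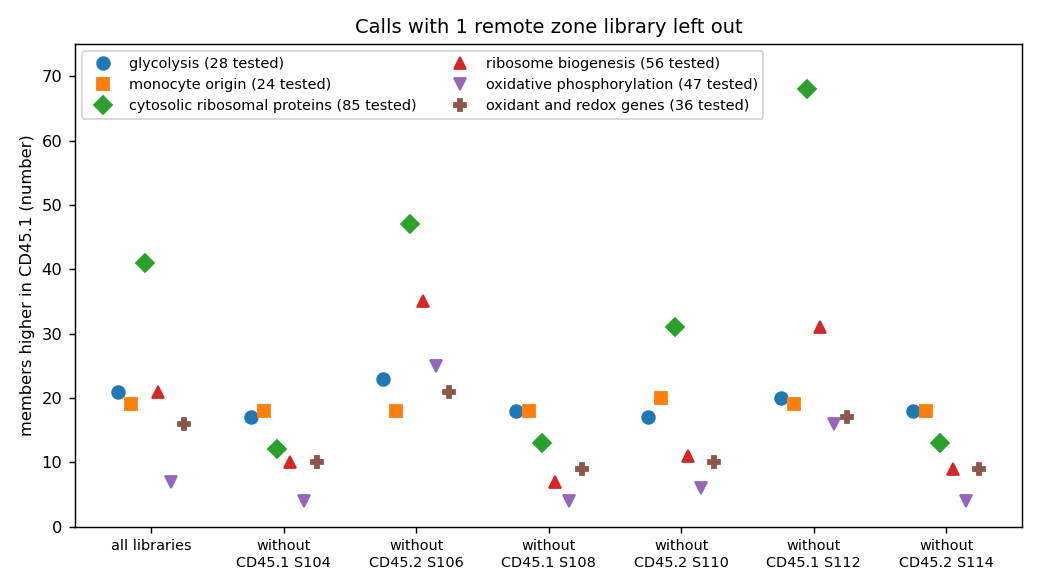
Number of members of 6 gene lists called higher in CD45.1 with all libraries and with 1 remote zone library left out at a time. Counts for glycolysis (17 to 23) and monocyte origin (18 to 20) move little, whereas those for ribosomal proteins lie between 12 and 68 and those for oxidative phosphorylation between 4 and 25.

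Of 37 genes of fatty acid use and lipid transfer, 6 were called toward resident and 11 toward recruited cells, or 16.2% and 29.7% beside 16.2% and 15.8% of all genes. Fabp5, a fatty acid carrier, was at 517, 354 and 635 CPM in CD45.1 and at 33.1, 13.5 and 20.8 CPM in CD45.2 (log2 fold change -4.48 ± 0.48). Soat1, which stores cholesterol as esters, was at 367, 397 and 363 CPM in CD45.1 and at 116, 85.9 and 85.4 CPM in CD45.2 (-1.97 ± 0.14). Apoc2, the cofactor of lipoprotein lipase, was at 117, 135 and 115.1 CPM in CD45.1 and at 10.6, 7.97 and 10.8 CPM in CD45.2 (-3.64 ± 0.39). The fatty acid transporter Cd36 ran against these, at 187, 268 and 287 CPM in CD45.1 and at 677, 645 and 522 CPM in CD45.2 (1.31 ± 0.19). In cholesterol synthesis 5 of 22 genes (22.7%) were called toward recruited and 1 (4.55%) toward resident cells. The 5 became 9 without S106 or S112 and 10 with limma-voom or a term for libraries S104 to S107. Mvd, an enzyme of the mevalonate pathway, was at 29.5, 29 and 27.1 CPM in CD45.1 and at 14.7, 8.26 and 9.24 CPM in CD45.2 (-1.41 ± 0.21). Cd36 was chosen after its values were seen.

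Oxidant and redox genes were higher in CD45.1 for 16 of 36 tested (44.4%) and in CD45.2 for 6 (16.7%). Over all genes these shares were 15.8% and 16.2%. The 16 became 10 without S104 or S110 and 9 without S108 or S114. Prdx6, a peroxiredoxin that repairs oxidized lipids, was at 401, 397 and 261 CPM in CD45.1 and at 78.3, 56 and 43.8 CPM in CD45.2 (-2.57 ± 0.25). Glutathione reductase (Gsr) was at 193, 299.9 and 215 CPM in CD45.1 and at 79.7, 52.3 and 43.1 CPM in CD45.2 (-2.02 ± 0.23). Catalase (Cat), which breaks down hydrogen peroxide in peroxisomes, was at 114.5, 110.9 and 123 CPM in CD45.1 and at 219, 196 and 206 CPM in CD45.2 (0.83 ± 0.11).

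Of 30 genes of iron and heme handling tested, 8 (26.7%) were called toward resident and 10 (33.3%) toward recruited cells. Over all genes these shares were 16.2% and 15.8%. The iron exporter ferroportin (Slc40a1) was at 13, 34.3 and 29.9 CPM in CD45.1 and at 266, 219 and 170.4 CPM in CD45.2 (3.09 ± 0.44). Ceruloplasmin (Cp), which oxidizes exported iron, was at 6.65, 9.25 and 10.9 CPM in CD45.1 and at 73.1, 98.5 and 87.5 CPM in CD45.2 (3.27 ± 0.27). Transferrin, given above, was higher in resident cells as well. The heme exporter Flvcr1 was at 58.8, 60.3 and 56.8 CPM in CD45.1 and at 29.6, 27 and 26.3 CPM in CD45.2 (-1.09 ± 0.12). Lcn2, which binds bacterial iron carriers, was at 18.5, 18.8 and 7.48 CPM in CD45.1 and at 1.97, 1.11 and 1.65 CPM in CD45.2 (-3.24 ± 0.36). The 10 became 6 without S108 or S114, and among those lost was the storage gene Fth1 (adjusted p = 0.0286 with all libraries, and from 0.0612 to 0.0993 without any 1 of S104, S108, S110 and S114). Slc40a1 was chosen after its values were seen, and Cp and Flvcr1 share exons.

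Cell cycle genes were called higher in CD45.2 for 6 of 47 tested (12.8%, beside 16.2% of all genes) and lower for 0. With all libraries 42 of 47 log2 fold changes were above 0 and the median was 0.7. This median was 0.07 without S106 and 0.17 with limma-voom. Cyclin D2 (Ccnd2) was at 17.5, 13.6 and 16.7 CPM in CD45.1 and at 99.1, 78.2 and 94.7 CPM in CD45.2 (2.51 ± 0.18). Kif23, a kinesin of cell division, was at 9.7, 6.22 and 8.11 CPM in CD45.1 and at 58.3, 20 and 27.7 CPM in CD45.2 (2.14 ± 0.39), with the highest level in replicate S106. The 6 became 3 without S106 or S112 and 13 without S110, and 3 genes were called lower without S106. It was 13 with DESeq2 and 21 with a term for libraries S104 to S107. Type I interferon genes had few calls with edgeR. Of 38 tested, 1 (2.63%) was called toward CD45.2 and 2 (5.26%) toward CD45.1, beside 16.2% and 15.8% of all genes. Without CD45.1 replicate S112, 7 were called higher in CD45.2. Ifi27l2a was at 50.8, 71.4 and 184 CPM in CD45.1 and at 314, 319 and 314 CPM in CD45.2 (1.63 ± 0.45, adjusted p = 0.0178), and lost its call without S104 (0.0589) or S108 (0.0763). Oas3, a sensor of double-stranded RNA, was at 12.3, 20.8 and 63.7 CPM in CD45.1, where S112 stood apart, and at 12.5, 8.69 and 10.5 CPM in CD45.2 (adjusted p = 0.0524, and 0.0211 without S104).

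Of 53 growth factors and tissue signals tested, 11 were called toward resident and 12 toward recruited cells, or 20.8% and 22.6% beside 16.2% and 15.8% of all genes. Kitl, the stem cell factor, was at 1.57, 3.25 and 3.78 CPM in CD45.1 and at 28.9, 39.4 and 34 CPM in CD45.2 (log2 fold change 3.57 ± 0.37). Pdgfb, a mitogen of mural cells, was at 4.97, 5.85 and 4.62 CPM in CD45.1 and at 32.5, 45.6 and 38.2 CPM in CD45.2 (2.91 ± 0.21). Bmp2 was at 2.01, 3.47 and 7.83 CPM in CD45.1 and at 22.8, 61.5 and 63.1 CPM in CD45.2 (3.47 ± 0.53). Like Igf1, these factors were higher in every resident than in any recruited library. Oncostatin M (Osm), an inflammatory cytokine that acts on heart muscle cells, was at 456, 710.3 and 377 CPM in CD45.1 and at 67.4, 61 and 47 CPM in CD45.2 (-3.14 ± 0.23). Neuregulin (Nrg1) was at 3.78, 3.9 and 15.1 CPM in CD45.1 and at 0.208, 0.226 and 0.0693 CPM in CD45.2 (-5.49 ± 0.84). Without S104 the 12 genes became 8. Bmp2 and Nrg1 were chosen after their values were seen, and Nrg1 shares exons.

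Of 28 chemokines tested, 8 were called toward CD45.2 and 6 toward CD45.1, or 28.6% and 21.4% beside 16.2% and 15.8% of all genes. Ppbp, a ligand that attracts neutrophils, was at 463, 417 and 167 CPM in CD45.1 and at 47.5, 24.9 and 19.1 CPM in CD45.2 (log2 fold change -3.52 ± 0.56). Ccl9 was at 1169, 1361 and 1099 CPM in CD45.1 and at 617, 706 and 757 CPM in CD45.2 (-0.8 ± 0.15). The monocyte attractant Ccl2 was at 1685, 1757 and 538 CPM in CD45.1 and at 508, 392 and 327 CPM in CD45.2 (-1.7 ± 0.38). The B cell attractant Cxcl13 was at 6.02, 0 and 0.63 CPM in CD45.1 and at 292, 12.3 and 24.5 CPM in CD45.2. Its log2 fold change of 5.63 ± 1.51 was 3.05 without S106, where the call was lost (adjusted p = 0.082), and 8.53 without S104. The 8 became 5 without S104 or S110 and 4 without S114. Among attractant receptors 6 of 33 were higher in CD45.1 and 2 in CD45.2, or 18.2% and 6.06%, beside 15.8% and 16.2% of all genes. Ltb4r1, the receptor of leukotriene B4, was at 155, 261 and 140.0 CPM in CD45.1 and at 12.4, 11.3 and 6.1 CPM in CD45.2 (-4.22 ± 0.32). S1pr1, the sphingosine phosphate receptor by which leukocytes leave tissues, was at 88.4, 59.7 and 72 CPM in CD45.1 and at 203, 177 and 187 CPM in CD45.2 (1.36 ± 0.20). The 6 attractant receptors became 10 with limma-voom and 11 with a term for libraries S104 to S107. Ccl2 and Cxcl13 were chosen after their values were seen.

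Enzymes and receptors of lipid mediators also went both ways. Of 30 tested, 9 were called toward resident and 6 toward recruited cells, or 30% and 20% beside 16.2% and 15.8% of all genes. Alox5, the first enzyme of leukotriene synthesis, was at 37, 36.2 and 42.9 CPM in CD45.1 and at 703, 529 and 594 CPM in CD45.2 (log2 fold change 3.98 ± 0.18). Ltc4s, which makes leukotriene C4, was at 8.15, 14.9 and 19.3 CPM in CD45.1 and at 150.4, 122 and 107.9 CPM in CD45.2 (3.17 ± 0.34). Both synthesis genes were thus higher in resident cells. Ltb4r1, a receptor of leukotriene B4 and not of leukotriene C4, was higher in recruited cells. Hpgd, which inactivates prostaglandins, was at 4.68, 5.83 and 8.84 CPM in CD45.1 and at 252, 502 and 367 CPM in CD45.2 (5.86 ± 0.50). Ephx1, an epoxide hydrolase, was at 4.72, 5.47 and 7.56 CPM in CD45.1 and at 213, 243 and 236 CPM in CD45.2 (5.29 ± 0.34). The prostaglandin receptor Ptger2 was at 30.6, 28.6 and 29.3 CPM in CD45.1 and at 5.54, 3.84 and 5.6 CPM in CD45.2 (-2.56 ± 0.19). The 6 became 4 without S108. Hpgd was chosen after its values were seen, and Ltc4s, Ephx1 and Ptger2 share exons.

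Lysosomal genes were higher in CD45.1 for 19 of 54 tested (35.2%) and in CD45.2 for 7 (13%). Over all genes these shares were 15.8% and 16.2%. Cathepsin L (Ctsl) was at 1879, 1830.5 and 1781 CPM in CD45.1 and at 329, 242 and 267 CPM in CD45.2 (log2 fold change -2.71 ± 0.23). Gla, which degrades glycolipids, was at 72.4, 80.3 and 74.4 CPM in CD45.1 and at 17.1, 11.4 and 12.7 CPM in CD45.2 (-2.46 ± 0.22). Another cathepsin showed the reverse: Ctsf was at 2.7, 2 and 3.68 CPM in CD45.1 and at 105.4, 115.5 and 108.98 CPM in CD45.2 (5.3 ± 0.23, adjusted p = 4.84e-07). Without genes that share exons, among them Ctsl, 10 of the 37 lysosomal genes then tested were called higher in CD45.1.

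Pattern recognition receptors were higher in CD45.1 for 16 of 49 tested (32.7%) and in CD45.2 for 10 (20.4%). Over all genes these shares were 15.8% and 16.2%. Mefv, which encodes the inflammasome sensor pyrin, was at 65.9, 117 and 119 CPM in CD45.1 and at 5.52, 4.4 and 3.99 CPM in CD45.2 (log2 fold change -4.44 ± 0.31). Tlr12, a receptor for parasite profilin, was at 0.173, 0 and 0.126 CPM in CD45.1 and at 2.27, 6.43 and 5.42 CPM in CD45.2 (5.57 ± 0.77). The 16 became 10 without S108.

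Of 49 guidance molecules known from axon growth that were tested, 15 were higher in resident and 6 in recruited cells, with a median log2 fold change of 1.2. Sema6d, a membrane semaphorin, was at 1.23, 0.717 and 1.13 CPM in CD45.1 and at 37.4, 59.4 and 50.5 CPM in CD45.2 (5.58 ± 0.49). Plxna4, a semaphorin receptor, was at 1.02, 1.1 and 1.26 CPM in CD45.1 and at 32.7, 52.6 and 51.5 CPM in CD45.2 (5.34 ± 0.29). Both were at about 1 CPM in every recruited library. Ephb6, an ephrin receptor without kinase activity, was at 1.05, 0.283 and 0.504 CPM in CD45.1 and at 7.21, 7.78 and 7.56 CPM in CD45.2 (3.61 ± 0.51). The 6 became 3 without S108 or S110.

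Of 78 ion channels tested, 18 were called toward CD45.2 and 14 toward CD45.1, or 23.1% and 17.9% beside 16.2% and 15.8% of all genes. Trpv4, a calcium channel that responds to stretch and swelling, was at 14.5, 20.6 and 28.3 CPM in CD45.1 and at 164, 157 and 193 CPM in CD45.2 (log2 fold change 3.02 ± 0.24). The potassium channel Kcna3 was at 54.5, 60.1 and 47.3 CPM in CD45.1 and at 16.2, 21.7 and 23.2 CPM in CD45.2 (-1.41 ± 0.16). The 14 became 8 without S110 and 9 without S114.

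**Figure D5:**
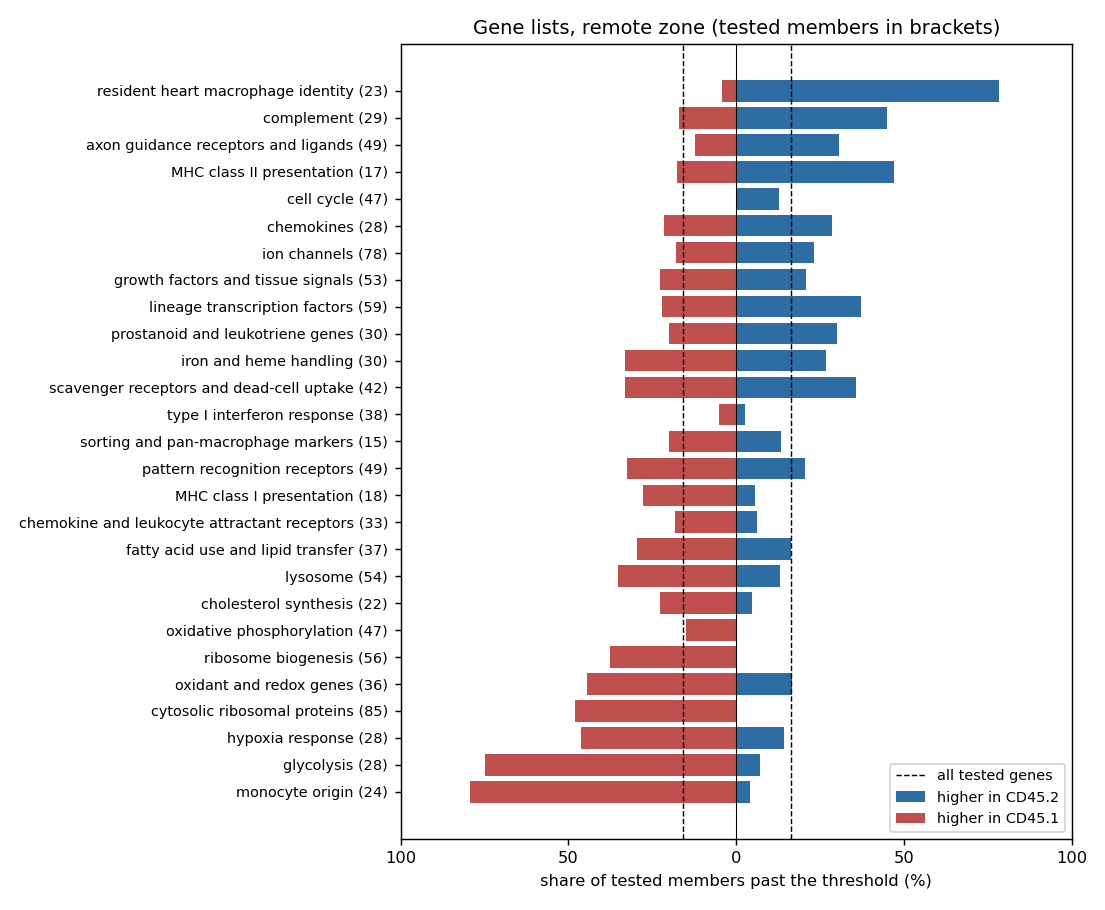
Share of the tested members of each of 27 gene lists called higher in CD45.2 (blue, to the right) and in CD45.1 (red, to the left), ordered by median log2 fold change, with the shares over all tested genes, 16.2% and 15.8%, as dashed lines. Resident identity, MHC class II and complement lie farthest above the dashed line on the right, at 78.3%, 47.1% and 44.8%, and monocyte origin and glycolysis on the left, while interferon genes lie below both lines.

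Markers of other cell types moved with the populations too, and their part in the results was not tested. With bulk libraries, fewer cells of a type and less RNA per cell cannot be told apart. The heart muscle list summed to 21 to 32.7 CPM in CD45.1 and 63.3 to 148 CPM in CD45.2. Of its 14 genes tested, 10 (71.4%) were called toward CD45.2 and 0 toward CD45.1, beside 16.2% and 15.8% of all genes. Tnnt2, the troponin of heart muscle, was at 6, 4.23 and 5.88 CPM in CD45.1 and at 13.4, 13.9 and 24.2 CPM in CD45.2. B cell markers summed to 51.7 to 82.1 CPM in CD45.1 and 310.1 to 657 CPM in CD45.2, most of it Ighm, the constant region of IgM, at 41.6, 56.5 and 72.8 CPM against 275, 639.9 and 583 CPM (log2 fold change 3.13 ± 0.44). Of the T and NK cell list, Cd4 alone was called, at 0.594, 0.317 and 0.609 CPM in CD45.1 and at 16.4, 15.7 and 25.2 CPM in CD45.2 (5.24 ± 0.52), while Cd3d was at most at 0.23 CPM in any library and Ncr1 and Gzma had 0 counts. The neutrophil list summed to 376 to 465 CPM in CD45.1 and 174 to 211 CPM in CD45.2. Of 9 tested, 3 (33.3%) were called higher in CD45.1, beside 15.8% of all genes. Ly6g had 6 counts and Mpo 2 counts in all 6 libraries together. The endothelial list overlapped between the populations, at 67.2 to 118 CPM in CD45.1 and 40.7 to 189 CPM in CD45.2. The fibroblast list summed to 874 to 913 and 752 to 1192 CPM, most of it Gsn, which macrophages also express and which was at 859, 856 and 759 CPM in CD45.1 and at 602, 531 and 753 CPM in CD45.2. Without Gsn the fibroblast sum was 19.8 to 114.4 CPM in CD45.1 and 150.0 to 514 CPM in CD45.2, without overlap, and 11 of the 12 log2 fold changes of the list were above 0, with a median of 2.56. With edgeR, 2 of 12 fibroblast genes (16.7%) were called toward CD45.2 and 1 (8.33%) toward CD45.1, beside 16.2% and 15.8% of all genes. With a term for libraries S104 to S107, 10 fibroblast, 7 endothelial and 4 mural genes were called toward CD45.2, and 7 neutrophil genes toward CD45.1. Without genes that share exons, 2 of the 4 heart muscle genes then tested were called, with a median log2 fold change of 1.64.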

How the data were processed

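Paired reads were trimmed by the authors with bbduk, aligned with HISAT2 (2.2.1) to GRCm38.p6 and deposited as raw counts per gene from featureCounts (Subread 2.0.1). Strand was not used, and each pair was assigned to all genes that it covered by at least 5 bases, so 11599 of 55487 genes share exons and reads. GENCODE M21 named 55141 genes. Columns of other samples numbered 0.

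Counts were filtered with filterByExpr (minimum count 10, total 15), scaled by TMM and fitted over all 12 libraries with the quasi-likelihood method of edgeR 4.0.16 in R 4.3.3. The 6 remote zone libraries were compared by population, with an adjusted p threshold of 0.05. The standard error is the fold change over the root of F. DESeq2 1.42.0, limma-voom 3.58.1, other filters and scalings, omission of libraries and batch-like terms gave 16 alternatives, of which the term for libraries S108 to S111 was chosen after seeing the data. The procedure was tested on simulated data. Totals of 46855805 to 63435529 counts per library came from about 1000 sorted cells each, so they do not give the number of molecules sampled.

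Named genes were the 12 largest folds per direction (at least 10 CPM, no overlap, no shared exons), the 10 largest CPM differences per direction, the 4 smallest adjusted p of each list and the 5 of the zone test per direction. Other genes were chosen after their values were seen, among them Lgmn, Cd3d, Ncr1, Gzma, Ly6g, Mpo, Lcn2 among iron genes and Pgam1 among the promoters printed. Members and lists were chosen with earlier results of these data known. Some results are not reported here because their items are withheld.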

Additional observations from a re-analysis of the deposited data

How the results depend on the processing

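No gene was called in opposite directions between the fit reported and any of the 16 alternatives, and of 219 named genes that were called, 0 reversed and 0 to 18 lost their call per alternative. Without genes that share exons, 1859 genes were called toward resident and 1659 toward recruited cells, since fewer genes were tested. With 1 remote zone library left out, the counts lay between 2029 and 3426 (CD45.2) and between 1980 and 3802 (CD45.1), lowest without S108 and S114 and highest without S106. The test between zones, with 0 calls, gave 163 with DESeq2, 25 with limma-voom, 30 with no filter on low counts, 4 with a filter of 1 CPM in 3 libraries, 28 without both S104 and S106, 48 with a term for libraries S104 to S107, 11 with a term for S108 to S111, and 0 to 60 with 1 library left out. The cause was not tested. The labels tie no library to an animal, so no pairing was used. Libraries with consecutive numbers, such as S104 to S107 or S108 to S111, hold each group in turn. S108 and S110, the male libraries by Ddx3y, fall in the same set. Whether the libraries of a set share an animal was not tested. A term for a single set does not replace a pairing. The term for S104 to S107 gave 4017 genes higher in CD45.2 and 3868 higher in CD45.1. It also raised list counts, among them cell cycle from 6 to 21 and oxidative phosphorylation from 7 to 27. Genes near 0 CPM in 1 population have folds that depend on few counts.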
